A study of Drosophila melanogaster with 28 samples.

Results

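The 5 genes described here encode the mitotic cyclins A, B and B3 (*CycA*, *CycB* and *CycB3*) and the cyclins of G1 phase and S-phase entry (*CycE* and *CycD*) of *Drosophila melanogaster*. They were taken by symbol, with earlier results of these data known, from the 16768 fly genes listed in all 3 deposited tables. All 5 were found in each table. Cyclins are the regulatory subunits that activate cyclin-dependent kinases. The A and B type cyclins act with Cdk1 to drive mitosis, cyclin E acts with Cdk2 at entry into S phase, and cyclin D acts with Cdk4 and couples growth to division. The fly embryo is supplied with these mRNAs by its mother and runs its first nuclear cycles, which alternate S phase and mitosis without gap phases, before its own genome is broadly active. The Pan gu (PNG) kinase is known for raising the translation of *CycA* and *CycB* mRNA after egg activation.

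The study measured RNA in total lysate (input) and in immunoprecipitates (IP) of ME31B, a DEAD-box helicase that represses translation, and of the poly(A)-binding protein PABP. It proposes that ME31B binding mainly lowers translation in early embryos and is tied to mRNA decay later, from 1–2 hr on. ME31B was precipitated with anti-GFP from eGFP-ME31B embryos, a protein-trap line in which the endogenous gene carries eGFP, and PABP from w1118 embryos with a synthetic antibody fragment, both at 0–1, 1–2, 2–3, 3–4 and 4–5 hr after egg-laying. Embryos of png50 mothers, which carry a weak hypomorphic allele of *png*, gave inputs at 0–1 and 2–3 hr, and eGFP-me31B;png50 embryos gave an input and a ME31B IP at 0–1 hr. S2 cells, a macrophage-like cultured line, were used untransfected for PABP and after transfection with an eGFP-ME31B plasmid for ME31B.

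Each condition was represented by 1 library, 28 in all, so that no difference has a replicate error or a test. The depth, estimated from the spacing of low FPKM values (fragments per kilobase of transcript, scaled to the size of the library), was 10.3 to 16.6 M reads (M, mega), and each of the 5 genes was covered by an estimated 125 or more reads in every library. The summed fly FPKM of the w1118 inputs at 0–1 and 1–2 hr was 302478 and 125101, against 1021829 to 1160521 at later ages. Values between libraries are therefore given as shares of the summed fly FPKM in parts per 1000000 (ppm), or scaled to the added worm RNA where stated. Transfection was visible in the *me31B* level, at 1486 FPKM in the transfected and 50.7 FPKM in the untransfected S2 input. The *png* mRNA was at 128.3 to 158.8 FPKM in the 3 inputs from *png* mutant mothers, which does not check the allele. Of 6 hemocyte-type markers fixed for S2 cells, *Pxn*, *srp* and *crq* reached 1 FPKM in both S2 inputs and *Hml*, *NimC1* and *Sr-CI* did not. The same 3 reached it in eGFP-ME31B inputs at 2–3, 3–4 and 4–5 hr. The 6 summed to 106.8 and 149.8 FPKM in S2 inputs and 12.7 to 201.2 FPKM in embryo inputs. These markers therefore did not set S2 cells apart from embryos. None of 5 zygotic embryo genes was above 0 FPKM in S2 cells. In such bulk samples, fewer cells with an mRNA and less of it per cell cannot be told apart.

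In the Ensembl BDGP6.54 annotation (release 115, the dm6 assembly), all 5 genes are protein coding and lie on the minus strand. *CycA* (FBgn0000404) spans 11826719 to 11833578 on chromosome 3L, *CycB* (FBgn0000405) 22803521 to 22806948 on 2R, and *CycB3* (FBgn0015625) 24867934 to 24870816 on 3R. *CycE* (FBgn0010382) spans 15727581 to 15748150 on 2L and *CycD* (FBgn0010315) 15906822 to 15909676 on X. *CycB3* is the member whose annotated transcripts have 1 exon, and the *CycE* transcripts, 3363 to 3946 nt long, have 4 to 7. No annotated gene overlaps a member on the same strand. *CycA* overlaps *CG7264* and *CycE* overlaps 2 non-coding RNA genes on the opposite strand, and whether the counting used strand is not given in the sources used here.

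*CycA* and *CycB* were among the most abundant RNAs of the embryo, at or above the 98.4th percentile of the 16768 genes in all 13 embryo inputs. *CycB3*, *CycE* and *CycD* were lower, with *CycA* at up to 28.2 times the FPKM of *CycB3* within an input. The share of *CycA* in eGFP-ME31B inputs was 828, 862, 1161, 679 and 499 ppm from 0–1 to 4–5 hr. In w1118 inputs the *CycA* share was 603, 657, 599, 549 and 432 ppm. The highest *CycA* share was thus 2.33-fold above the lowest in eGFP-ME31B and 1.52-fold in w1118, and 4–5 hr was the lowest age in both. In the 3 inputs from *png* mutant mothers its share was higher than in any other embryo input. It was 1606 ppm in eGFP-me31B;png50, and 1656 and 1625 ppm in png50 at 0–1 and 2–3 hr. These inputs were quantified apart from the other embryo inputs, so genotype and experiment cannot be told apart in any comparison with them. In S2 cells *CycA* was at 72.7 and 91.4 ppm.

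*CycB* stood at a similar level. Its share was 776, 843, 1118.4, 736 and 689 ppm in eGFP-ME31B inputs. In w1118 inputs it was 944, 945, 681, 438 and 329 ppm, lower at each of the last 3 ages than at the 2 before. The *CycB* share in the *png* mutant inputs was again above all other embryo inputs, at 1719 ppm in eGFP-me31B;png50 and at 1849 and 1562 ppm in png50. The order of the mitotic pair differed by strain and age: the *CycB* to *CycA* ratio of FPKM was 0.937 at 0–1 hr and 1.38 at 4–5 hr in eGFP-ME31B inputs, and 1.57 and 0.762 in w1118 inputs. S2 cells held *CycB* at 109.7 and 142.6 ppm, the highest of the 5 genes in those cells.

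*CycB3* followed a different course in the eGFP-ME31B and w1118 inputs. These were quantified separately with 1 library per age, so strain, experiment and single libraries cannot be told apart here. In eGFP-ME31B inputs its share was 29.4, 40.4, 56.1, 77.0 and 110.2 ppm, higher at each age than at the one before. In w1118 inputs it was 84.5, 76.6, 87.3, 87.2 and 71.3 ppm and showed no such rise. The *CycB3* share was 82.8 ppm in eGFP-me31B;png50 at 0–1 hr, and 106.7 and 69.6 ppm in png50 at 0–1 and 2–3 hr. The 0–1 hr eGFP-ME31B value was therefore the lowest of the 13 embryo inputs, with the other 0–1 hr embryo inputs 2.82-fold or more above it. In S2 cells the *CycB3* share was 15.2 and 19.7 ppm.

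Of the G1 and S-phase cyclins, *CycE* had a share of 84.5, 80.6, 90.6, 69.2 and 55.3 ppm in eGFP-ME31B inputs. In w1118 inputs it was 133.5, 102.7, 39.6, 35.7 and 20.6 ppm. The *CycE* share in w1118 was thus 6.47-fold lower at 4–5 than at 0–1 hr, the widest range of the 5 genes in this strain. The png50 inputs held *CycE* at 138.7 and 81.3 ppm at 0–1 and 2–3 hr, and the eGFP-me31B;png50 input at 127.2 ppm.

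The share of *CycD* was lower at 4–5 hr than at 0–1 hr in both series. It was 226.5, 155.9, 164.0, 92.8 and 86.6 ppm in eGFP-ME31B inputs and 127.0, 105.5, 83.1, 44.7 and 38.4 ppm in w1118 inputs. In png50 the *CycD* share was 178.5 and 162.5 ppm at 0–1 and 2–3 hr, and in eGFP-me31B;png50 179.5 ppm at 0–1 hr. In S2 cells *CycE* was at 17.1 and 25.0 and *CycD* at 30.6 and 34.2 ppm. The S2 shares lay below every embryo share for *CycA*, *CycB*, *CycB3* and *CycD*, and overlapped the 4–5 hr w1118 value for *CycE*.

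**Figure D1:**
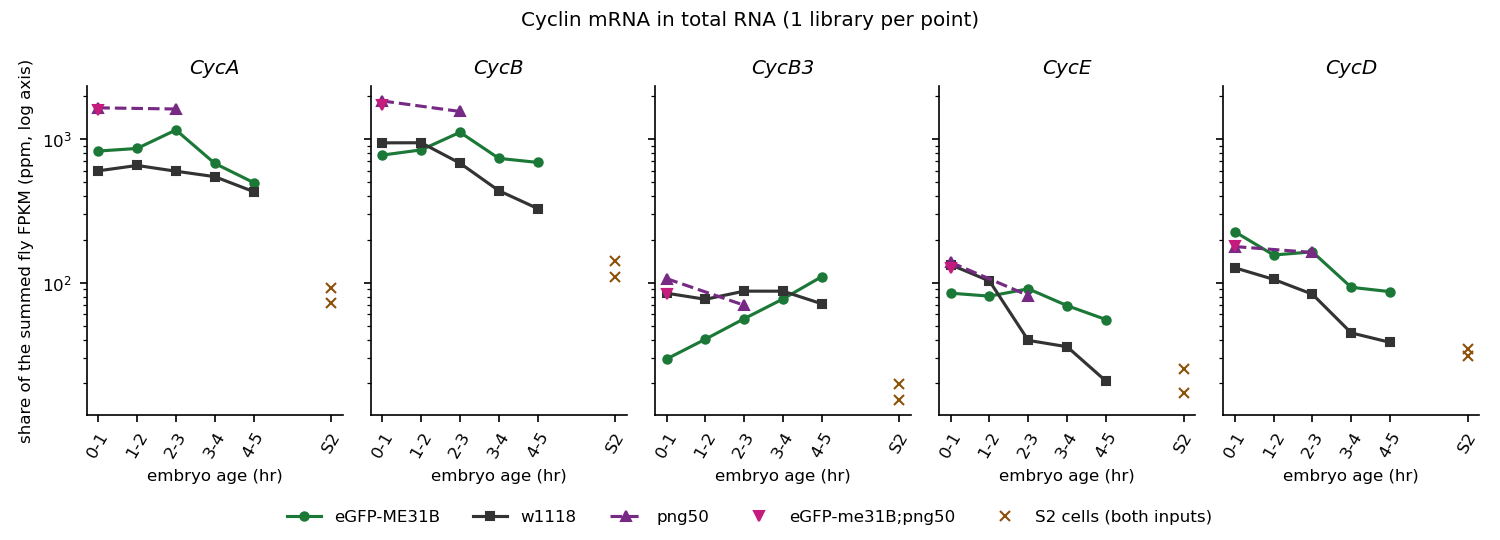
Input level of each cyclin mRNA as its share of the summed fly FPKM in ppm (log axis) against embryo age in hours, with both S2 inputs at the right. Each point is 1 library; the *CycA* and *CycB* points of the png50 and eGFP-me31B;png50 inputs, at 1562 to 1849 ppm, lie above all others, and *CycB3* in eGFP-ME31B embryos goes from 29.4 to 110.2.

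The change of the inputs from 0–1 to 2–3 hr, the interval in which many maternal mRNAs are cleared, was then scaled to the added worm RNA. The study divided by the worm read total, and the summed worm FPKM without rRNA genes stood in for that total here. On this scale w1118 embryos at 2–3 hr had 57.6% of *CycA*, 41.8% of *CycB*, 59.9% of *CycB3*, 17.2% of *CycE* and 37.9% of *CycD* of their 0–1 hr level. Relative to the median gene, whose log2 change was -1.26, *CycE* differed by -1.28, *CycA* by 0.47 and *CycB3* by 0.52. Hence 3 of the 5 (*CycB*, *CycE* and *CycD*) were at least 2-fold lower at 2–3 hr, where 56.9% of 7721 genes were.

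The eGFP-ME31B and png50 inputs gave other values. In eGFP-ME31B embryos 94.2% of *CycA*, 96.9% of *CycB*, 128.3% of *CycB3*, 72.0% of *CycE* and 48.6% of *CycD* were measured at 2–3 hr relative to 0–1 hr. In png50 embryos the values were 72.3% for *CycA*, 62.2% for *CycB*, 48.1% for *CycB3*, 43.2% for *CycE* and 67.05% for *CycD*. At least 2-fold lower were 1 of 5 in eGFP-ME31B (*CycD*, beside 34.1% of all genes) and 2 of 5 in png50 (*CycB3* and *CycE*, beside 24.6%). With 5 members, these counts were within 1 member of the background in each strain.

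The counts depended on the scaling. By share of the fly FPKM, *CycE* in w1118 was the one such member in the 3 strains, with 29.7% of its 0–1 hr level, beside a background of 37.4% of genes in w1118, 17.8% in eGFP-ME31B and 5.67% in png50. With FPKM as deposited, *CycA*, *CycB*, *CycB3* and *CycD* in w1118 were 2.21- to 3.49-fold higher at 2–3 hr, and the median gene had a log2 change of 1.28. The order of the 5 genes within a strain does not depend on the scaling: *CycE* was lowest in w1118 and png50, *CycD* in eGFP-ME31B. The maternal markers *bcd*, *osk*, *nos* and *grk* summed to 1809 and 758 FPKM at 0–1 and 2–3 hr in eGFP-ME31B. They summed to 386.7 and 126.3 FPKM in w1118, and 1340 and 1401 FPKM in png50. These sums are FPKM as deposited. The summed fly FPKM of w1118 was 302478 at 0–1 hr and 1021829 at 2–3 hr. As a share, the fall of the markers in w1118 was therefore steeper than these sums show. Worm RNA made up 16.5 to 35.7% of all FPKM in w1118 inputs, 30.9 and 34.0% in png50 inputs, and 0.404 to 1.17% in eGFP-ME31B inputs. The part of either in the cyclin values was not tested.

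**Figure D2:**
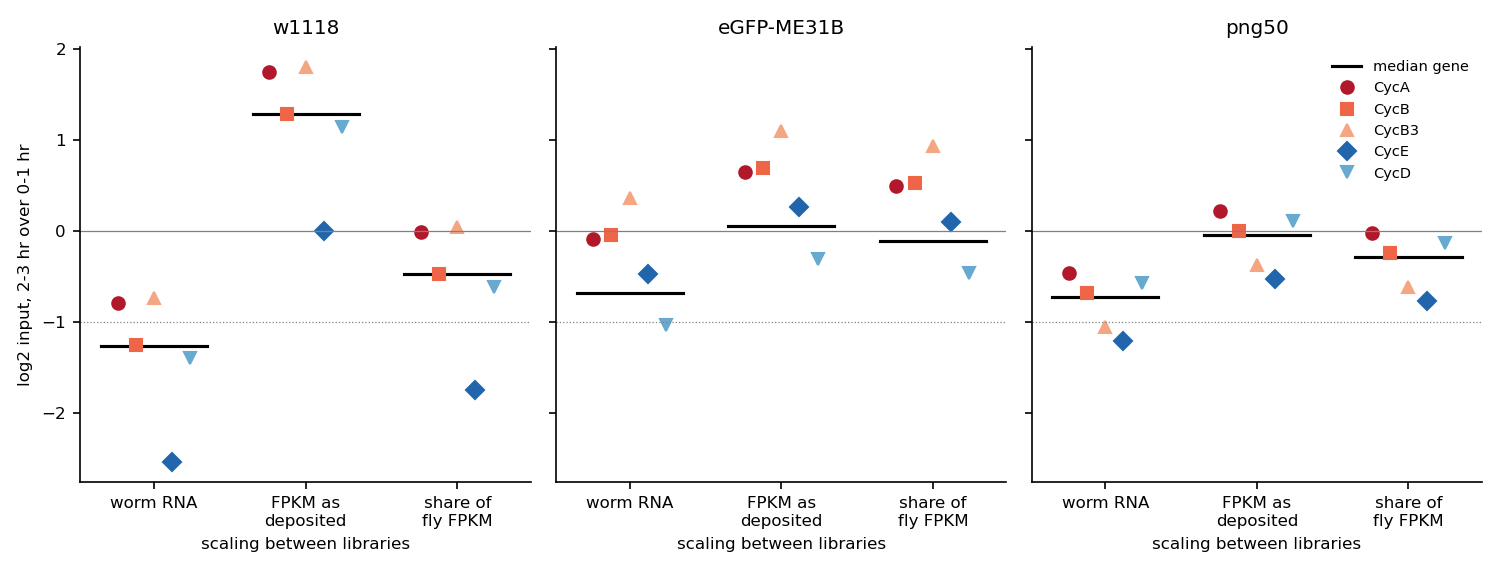
log2 ratio of input at 2–3 hr over 0–1 hr for the 5 cyclin mRNAs (points) and the median gene (black line) in w1118, eGFP-ME31B and png50 embryos, 1 library per age, under 3 scalings. The dotted line marks a 2-fold fall; *CycE* in w1118 lies at -2.54, 0.00 and -1.75 under the worm RNA, deposited and share scalings.

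Binding was taken as the log2 ratio of IP to input FPKM within a condition, set to 0 at the median gene, and it was computed for genes that exceeded 0.5 FPKM throughout a series of libraries. All 5 cyclin mRNAs passed that filter in each series. Binding values are relative, not absolute, and each is a distance from the median gene of its own condition. ME31B binding of the mitotic cyclins at 0–1 hr differed from that of the G1 and S-phase cyclins. *CycA* had 91.3 FPKM in the ME31B IP against 744 FPKM in the input, *CycB* 106.2 against 697 FPKM, and *CycB3* 4.29 against 26.4 FPKM. *CycE* had 52.8 against 76.0 FPKM and *CycD* 214.3 against 203.6 FPKM. The 3 mitotic members were thus 8.98-, 7.24- and 6.78-fold below the median gene, with 72, 118 and 143 of 6699 genes below *CycA*, *CycB* and *CycB3*. *CycE* at -0.67 and *CycD* at -0.07 lay in the middle of the distribution, at the 26.6th and 47.1st percentile. Hence 3 of 5 members were at least 2-fold below the median gene, beside 18.9% of all genes. The study had already named *CycA*, *CycB* and *CycB3* as poorly bound by ME31B at this age, so this count restates its examples. With the w1118 input of the same age as divisor, log2 ME31B binding was -2.81 for *CycA*, -3.24 for *CycB*, -4.39 for *CycB3*, -1.43 for *CycE* and 0.66 for *CycD*, which placed *CycE* among the members at least 2-fold below the median gene as well.

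ME31B binding of *CycA* and *CycB* then reached the median gene by 2–3 hr. The log2 binding of *CycA* was -3.17, -2.27, 0.18, 0.72 and 0.11 from 0–1 to 4–5 hr. That of *CycB* was -2.86, -1.92, 0.23, -0.51 and -0.92. As deposited, the IP held 1503 FPKM of *CycA* and 1506 FPKM of *CycB* at 2–3 hr, against 182.5 and 228.02 FPKM at 1–2 hr. The inputs were 1166 and 1124 FPKM against 850 and 831 FPKM. Divided by the summed worm FPKM of the same IP, *CycA* was 0.039, 0.048, 0.111, 0.033 and 0.012 from 0–1 to 4–5 hr. *CycB* was 0.045, 0.060, 0.111, 0.015 and 0.008. On that scale both were lower at 3–4 and 4–5 hr than at 0–1 hr. The study reports a sharp fall of ME31B protein over these ages, and log2 binding does not give the amount bound. The difference in log2 binding between 0–1 and 2–3 hr was 3.34 for *CycA*, exceeded by 5 of 6699 genes. It was 3.09 for *CycB*, exceeded by 8. Both were thus near the top of the table, in which 20.6% of genes were at least 2-fold higher at 2–3 hr, a count that includes these 2 of the 5 members. Beyond 2–3 hr the pair separated, *CycA* at the 72.1st and *CycB* at the 34.4th percentile at 3–4 hr. Divided by the w1118 inputs, log2 binding of *CycA* and *CycB* was 0.88 and 0.09 at 3–4 hr. At 4–5 hr it was -0.09 and -0.26, so the separation at that age rested on the eGFP-ME31B input.

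*CycB3* came near the median gene later. Its log2 ME31B binding was -2.76, -2.55, -1.92, -0.59 and -0.78, and at 2–3 hr its IP still held 17.0 FPKM against 56.3 FPKM in the input. It was the one member at least 2-fold below the median gene at 2–3 hr (1 of 5, beside 28.0% of genes), after *CycA*, *CycB* and *CycB3* at 1–2 hr (3 of 5, beside 24.9%). None of the 5 was at 3–4 hr (beside 20.6%) or 4–5 hr (beside 20.1%).

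*CycE* and *CycD* moved less. The log2 ME31B binding of *CycE* was -0.67, -0.32, 0.28, 0.16 and 0.03, within the 26.6th to 57.3rd percentile at all 5 ages. That of *CycD* was -0.07, -0.43, -0.86, -0.83 and -0.65, and *CycD* was lower at each later age than at 0–1 hr, opposite to the other 4 members between 0–1 and 2–3 hr. *CycD* lay at the 47.1st percentile at 0–1 hr and the 24.9th at 3–4 hr. Centred on *Act5C*, however, *CycD* was higher at 1–2 hr (0.89) and 2–3 hr (0.95) than at 0–1 hr (0.74).

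PABP binding in w1118 embryos also placed the mitotic cyclins apart at 0–1 hr. *CycA* had 63.6 FPKM in the PABP IP against 182.3 FPKM in the input, *CycB* 105.2 against 285.5 FPKM, and *CycB3* 7.16 against 25.6 FPKM. *CycE* had 61.4 against 40.4 FPKM and *CycD* 132.4 against 38.4 FPKM, and the IP to input ratio of the median gene was 2.52. The log2 binding at 0–1 hr was -2.85 for *CycA*, -2.78 for *CycB*, -3.17 for *CycB3*, -0.73 for *CycE* and 0.45 for *CycD*. Thus 107, 121 and 73 of 6086 genes lay below the 3 mitotic members, and 3 of 5 members were at least 2-fold below the median gene, beside 17.8% of genes. Divided by the eGFP-ME31B input of the same age in place of the w1118 input whose summed fly FPKM stood apart, the values were -3.14, -2.32, -1.47, 0.10 and -0.21 in the same order of genes.

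With age, PABP binding of the mitotic members came closer to the median gene but stayed below it, *CycA* by at least 2-fold at every age. The log2 PABP binding of *CycA* was -2.85, -1.86, -1.49, -1.46 and -1.43 from 0–1 to 4–5 hr, and at 4–5 hr 286 of 6086 genes were lower. That of *CycB* was -2.78, -1.77, -1.08, -0.52 and -0.61. That of *CycB3* was -3.17, -2.06, -1.26, -0.90 and -0.60. All 3 were at least 2-fold below the median gene at 1–2 hr (3 of 5, beside 18.6% of genes) and 2–3 hr (3 of 5, beside 15.9%), and *CycA* alone at 3–4 hr (1 of 5, beside 11.7%) and 4–5 hr (1 of 5, beside 12.1%). Divided by the eGFP-ME31B inputs, *CycB3* was not, at -0.84 at 1–2 hr and 0.04 at 2–3 hr, and *CycD* was at 2–3 hr, at -1.28. With those inputs the call was also reached by *CycD* at 3–4 hr (-1.23) and *CycB* at 4–5 hr (-1.16). The difference between 0–1 and 2–3 hr was 1.36 for *CycA*, 1.69 for *CycB*, 1.91 for *CycB3* and 1.41 for *CycE* on the log2 scale. These 4 of 5 members were at least 2-fold higher at 2–3 hr, where 17.7% of genes were. The value of *CycE* rested on the w1118 inputs: divided by the eGFP-ME31B inputs, its log2 PABP binding was 0.10 at 0–1 hr and 0.14 at 2–3 hr.

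*CycD* went the other way with PABP as well. Its log2 PABP binding was 0.45, -0.48, -0.95, -0.45 and -0.12, a difference of -1.40 between 0–1 and 2–3 hr, and 5816 of 6086 genes had a higher difference. Divided by the eGFP-ME31B inputs, *CycD* was at -0.21 and -1.28 at these ages, a difference of -1.07. *CycE* had -0.73, -0.84, 0.68, -0.09 and 0.41, with its highest value at 2–3 hr at the 74.2nd percentile.

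Set side by side at 2–3 hr and later, the 2 proteins differed most on *CycA*. PABP minus ME31B binding of *CycA* was 0.31 at 0–1 hr and 0.42 at 1–2 hr, then -1.67, -2.18 and -1.54. At 3–4 hr 5772 of 6002 genes measured in both series had a higher difference than *CycA*. The PABP and ME31B libraries came from different strains and lysates, so the proteins and the strains cannot be told apart in these differences.

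**Figure D3:**
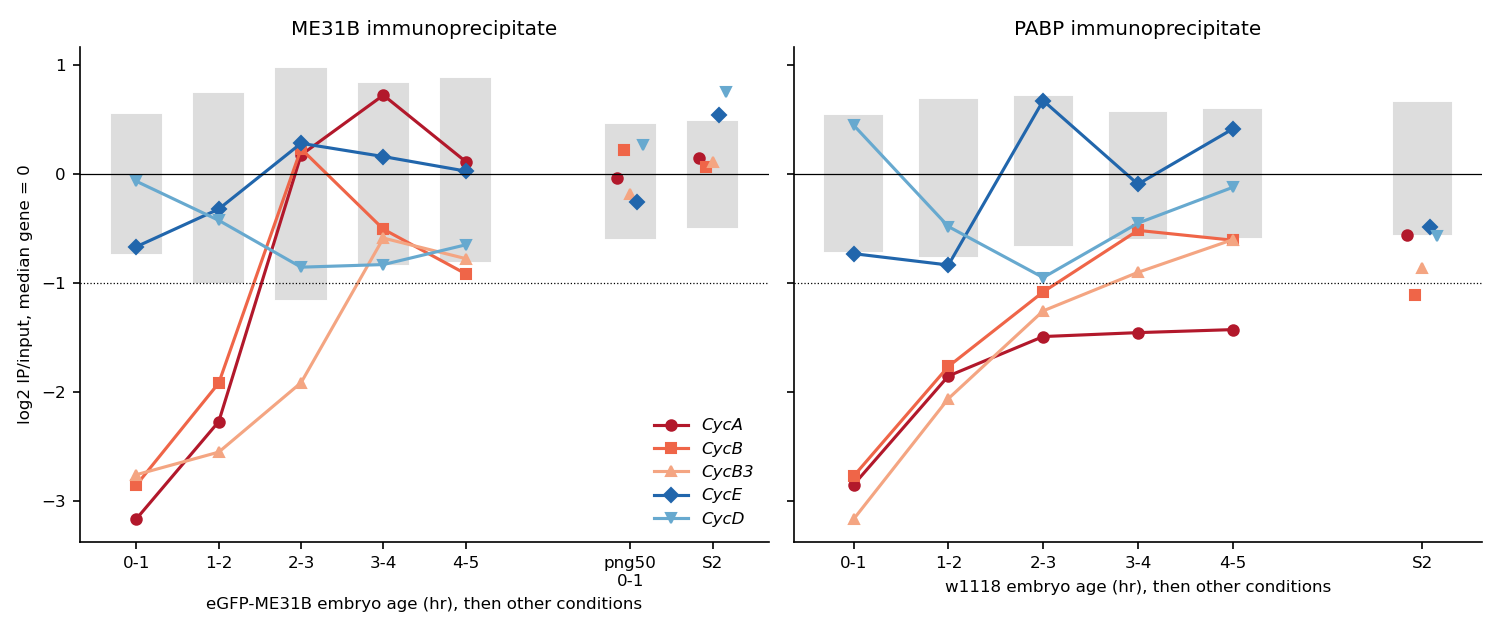
log2 IP/input of the 5 cyclin mRNAs, with the median gene at 0, for ME31B (left) and PABP (right) against embryo age in hours, followed by eGFP-me31B;png50 embryos (png50) and S2 cells. Grey boxes span the lower to the upper quartile of all genes, the dotted line marks 2-fold below the median gene, and each point is 1 IP and 1 input library; *CycA*, *CycB* and *CycB3* start between -3.17 and -2.76 in both panels.

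In eGFP-me31B;png50 embryos at 0–1 hr the mitotic cyclins were not at the low end of ME31B binding. The IP held 1672 FPKM of *CycA* against 1373 FPKM in the input, 2150 against 1470 FPKM of *CycB* and 77.8 against 70.8 FPKM of *CycB3*. *CycE* had 113.5 against 108.7 FPKM and *CycD* 231.3 against 153.5 FPKM. The log2 binding was -0.04 for *CycA*, 0.23 for *CycB*, -0.19 for *CycB3*, -0.26 for *CycE* and 0.27 for *CycD*, all between the lower and upper quartile of the genes. None of the 5 was at least 2-fold below the median gene, beside 14.8% of 6779 genes.

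Compared with eGFP-ME31B embryos of the same age, ME31B binding was higher in eGFP-me31B;png50 by 3.13 for *CycA*, 3.08 for *CycB* and 2.57 for *CycB3* on the log2 scale, or 8.74-, 8.46- and 5.96-fold. The differences for *CycE* and *CycD* were 0.41 and 0.34. Of the 6498 genes measured in both, 51, 53 and 100 had a larger difference than *CycA*, *CycB* and *CycB3*, and 9.54% were at least 2-fold higher, as were these 3 of 5 members. Each ratio was taken within its own table, since the tables were quantified separately. All libraries from *png* mutant mothers were quantified together and apart from the eGFP-ME31B libraries. Genotype and experiment therefore cannot be told apart in these differences. *Act5C*, the study's reference mRNA, had a log2 binding of -0.81 in eGFP-ME31B and -2.25 in eGFP-me31B;png50. Centred on *Act5C* in place of the median gene, all 5 members were at least 2-fold higher. That centre raises the difference of every gene by the same amount. With the median gene as centre, the lower quartile of all differences was -0.40. The share of all genes past 2-fold around *Act5C* was not computed, so this count does not set the cyclins apart. With other inputs as divisors (png50 and w1118) 4 of 5 members were at least 2-fold higher, *CycE* being the fourth with 1.13.

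**Figure D4:**
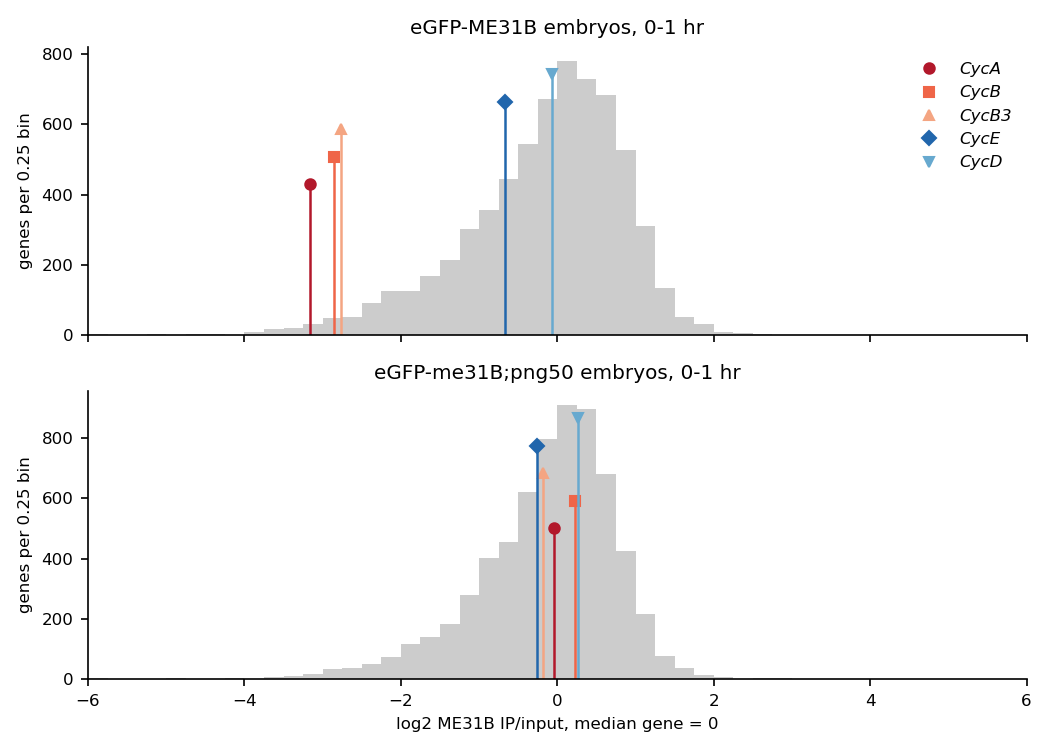
Number of genes per bin of log2 ME31B IP/input (bin width 0.25, median gene at 0) at 0–1 hr in eGFP-ME31B (top) and eGFP-me31B;png50 embryos (bottom), over the 6498 genes measured in both, with vertical marks at the 5 cyclins. *CycA*, *CycB* and *CycB3* lie in the left tail above (-3.17, -2.86 and -2.76) and near the centre below (-0.04, 0.23 and -0.19), and the heights of the marks carry no value.

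In S2 cells ME31B binding was near or above the median gene for every member. The log2 ME31B binding was 0.14 for *CycA*, 0.07 for *CycB*, 0.11 for *CycB3*, 0.54 for *CycE* and 0.75 for *CycD*, the last at the 85.2nd percentile of 7309 genes, and none of 5 was at least 2-fold below the median gene, beside 7.8% of genes. The IP and input FPKM were 62.1 and 60.2 for *CycA*, 91.9 and 93.9 for *CycB*, and 13.1 and 13.0 for *CycB3*. PABP binding was below the median gene for all 5, at -0.56 for *CycA*, -1.11 for *CycB*, -0.87 for *CycB3*, -0.49 for *CycE* and -0.57 for *CycD*. *CycB*, with 25.1 FPKM in the PABP IP against 74.8 FPKM in the input, was the one of 5 at least 2-fold below it, beside 9.69% of genes. On the log2 scale, the highest and lowest member were 0.68 apart in ME31B binding and 0.62 in PABP binding of S2 cells, against 3.10 and 3.62 at 0–1 hr in embryos.

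Genes that act on the cyclins and their kinases were described by lists chosen with earlier results of these data known. Of 7 Cdk partners and inhibitors, none was at least 2-fold below the median gene in ME31B binding at 0–1 hr, beside 18.9% of all genes, and their median was 0.79. *Cks30A* at 1.58 and *Cdk2* at 1.19, which encode a Cdk-binding subunit and the kinase partner of cyclin E, were at least 2-fold above it, beside 8.39% of all genes. Of 8 other cyclins none was 2-fold away in either direction, with a median of 0.18. Of 6 genes of the Cdk1 phosphorylation switch, *gwl* (the Greatwall kinase) at -1.99 and *Wee1* (a Cdk1 inhibitory kinase) at -1.02 were at least 2-fold below it, and none was 2-fold above. Their log2 ME31B binding in eGFP-me31B;png50 was 0.19 and 0.07, close to that of *CycA* and *CycB*.

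Among 13 genes of cyclin degradation, *fzy* (the Cdc20 activator of the anaphase-promoting complex) at -2.89, *shtd* (a subunit of that complex) at -2.38 and *ago* (an F-box protein that targets cyclin E) at -1.78 were at least 2-fold below the median gene in ME31B binding at 0–1 hr (3 of 13, beside 18.9% of all genes). *lmg*, a further subunit of the complex, was at least 2-fold above it at 1.2005. The median of the 13 was -0.25. In eGFP-me31B;png50 these 3 were at -1.07, -1.97 and -1.82, each still more than 2-fold below it, where *CycA*, *CycB* and *CycB3* were not. *Cdc27* (-1.11) and *Cdc16* (-1.08), which encode subunits of the complex, and *Rca1* (-1.02), which encodes an inhibitor of it, were also below it there, so that 6 of 13 were, beside 14.8% of all genes. Among 9 regulators of cyclin mRNA translation and decay, *smg* at -3.53, *brat* at -2.27 and *pum* at -1.54, which encode repressors of maternal mRNAs, were below it by 2-fold or more at 0–1 hr (3 of 9, beside 18.9%). *gnu*, which encodes an activating subunit of the PNG kinase, was above it at 1.80. In eGFP-me31B;png50 *smg* was at -0.50, *brat* at -1.01, *pum* at -1.90 and *gnu* at 1.21. The *png* mRNA itself was at -1.30 there, so that 3 of these 9 were below by 2-fold or more, beside 14.8%, and *gnu* was the 1 above, beside 5.68%. Of the other cyclins, *CycC* (-1.67) and *CycG* (-1.16) were below it there. In PABP binding at 0–1 hr, 1 of 7 Cdk partners and inhibitors, 1 of 6 genes of the Cdk1 switch, 4 of 13 genes of cyclin degradation, 0 of 7 other cyclins that passed the filter and 3 of 8 such regulators were at least 2-fold below the median gene, beside 17.8% of all genes. Compared with eGFP-ME31B at 0–1 hr, ME31B binding in eGFP-me31B;png50 differed by 1.82 for *fzy*, 0.41 for *shtd* and -0.04 for *ago*. It differed by 3.03 for *smg*, 2.18 for *gwl*, 1.27 for *brat* and 1.09 for *Wee1*. Hence 1 of 13, 2 of 6 and 2 of 9 genes of these lists were at least 2-fold higher, beside 9.54% of all genes. At least 2-fold lower were 2 of 13, 2 of 9, 2 of 8 other cyclins and 1 of 7 Cdk partners and inhibitors (5th percentile of all genes -1.05).

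Over the 28 libraries, the level of *CycA* was most like that of *CycB*, with a Pearson's r of 0.96 among 6397 candidate genes (log2 FPKM with 0.5 added, each library centred on its median gene), and next like those of *smg* (0.93) and *CG17359* (0.92). For *CycB* they were *CycA* (0.96), *smg* (0.95) and *gwl* (0.92). The libraries share strains, inputs and IPs of the same lysates and are not independent, so these are descriptions. *CycB3* was most like *pug* (0.97), which encodes an enzyme of folate metabolism, *ldbr* (0.94), the lariat debranching enzyme, and *CG31365* (0.93), and its r with *CycA* was 0.69. *CycE* had lower maxima, with *wisp* (0.84), a cytoplasmic poly(A) polymerase, *grp* (0.83), the Chk1 kinase, and *Mipp2* (0.83). *CycD* was most like *CG7156* (0.92), *dob* (0.90) and *twe* (0.90), a Cdc25 phosphatase, and its r was 0.39 with *CycA* and -0.05 with *CycB3*.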

How the data were processed

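RNA from the inputs and IPs was rRNA-depleted and sequenced with a stranded kit, after addition of worm RNA. Per the labels and the study's methods, the authors used bcl2fastq 2.17, FastQC 0.11.5, Trimmomatic, STAR 2.5.2a (dm6, or dm6 with ce10), Cufflinks 2.2.1 and R 3.1.2, and deposited FPKM in 3 tables, which were quantified separately and do not include the scaling to worm reads. FPKM are relative, so a few abundant RNAs or worm RNA lower all others. The authors made biological replicates; those other than the deposited libraries were not analysed here. The range of depths in the report is an estimate.

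Samples were grouped by their labels, with 28 libraries and 1 per condition, so no test was run. Binding was IP over input FPKM on the log2 scale, without a pseudocount, as the methods define it, centred here on the median gene; genes needed more than 0.5 FPKM in every library of a series. Input changes were computed for genes that reached 0.5 FPKM at any age, divided by the summed worm FPKM without rRNA genes, a substitute for the worm read totals the authors used. Calls are 2-fold. Alternatives were no filter, a filter of 2 FPKM (5 FPKM for inputs), a pseudocount of 0.5, *Act5C* or protein-coding genes as centre, the other input of the same age or cells as divisor, and 3 other scalings. Named genes were the 5 cyclins, for each the 3 genes with the highest Pearson's r, *Act5C*, *png* and *me31B*; list members past the 2-fold call in ME31B binding at 0–1 hr in either strain were named after their values were seen. The members and lists were chosen with earlier results of these data known. The differences between conditions, and their alternatives, were added after the data were seen. Python 3.11.15, numpy 2.4.6, pandas 2.3.3 and matplotlib 3.10.9 were used, and the binding calculation was tested on simulated data.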

Additional observations from a re-analysis of the deposited data

Results flagged for a closer look

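These results stood out because a member lay on opposite sides of the median gene, or changed in opposite directions, in the conditions set against each other, with at least 2-fold between them. With 1 library per condition none of these differences was tested, and no explanation was weighed.

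ME31B binding of *CycB* was higher in eGFP-me31B;png50 than in eGFP-ME31B embryos at 0–1 hr by 3.08 on the log2 scale. Between 0–1 and 2–3 hr in eGFP-ME31B embryos, ME31B binding crossed the median gene for *CycA* (a difference of 3.34) and *CycB* (3.09). PABP binding in w1118 embryos crossed it upward for *CycE* (1.41) and downward for *CycD* (-1.40) over the same interval. Divided by the eGFP-ME31B inputs, neither crossed it: *CycE* was at 0.10 and 0.14, and *CycD* at -0.21 and -1.28. Centred on *Act5C*, both lay above the centre at both ages. ME31B binding in S2 cells was above the median gene and that in eGFP-ME31B embryos at 0–1 hr below it for *CycA* (3.31), *CycB* (2.92), *CycB3* (2.88) and *CycE* (1.205), all against the same embryo library. Centred on *Act5C*, *CycE* was above the centre in both, with a difference of 0.90. PABP binding of *CycD* was lower in S2 cells than in w1118 embryos at 0–1 hr by -1.01. With the other inputs as divisors both values were below the median gene, at -0.45 in S2 cells and -0.21 in embryos, a difference of -0.24, and with the filter of 2 FPKM the difference was -0.94. The worm-scaled input change of *CycB3* from 0–1 to 2–3 hr was positive in eGFP-ME31B embryos and negative in w1118 and png50, with differences of -1.10 (w1118 minus eGFP-ME31B) and 1.42 (eGFP-ME31B minus png50). By share of the fly FPKM the change in w1118 was 0.05 against 0.93 in eGFP-ME31B, neither opposite nor 2-fold apart. With deposited FPKM both were positive, at 1.80 and 1.09, and relative to *Act5C* the difference was -0.81. Between eGFP-ME31B and png50 it was 1.55 by share and 0.88 relative to *Act5C*. The cause of these shifts was not tested.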

How the results depend on the processing

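Of 495 alternative values of single members, 57 had the opposite sign, 52 of them for a value under 2-fold and 5 for one of 2-fold or more. In binding these were 25 of 65 values centred on *Act5C*, 10 of 65 with the other input, 1 of 65 without a filter and 1 of 65 with the stricter filter. In input change they were 10 of 15 with deposited FPKM, 5 of 15 relative to *Act5C* and 4 of 15 by share of fly FPKM, and 1 more was the *CycD* difference between eGFP-me31B;png50 and eGFP-ME31B with other inputs (-0.30). The 5 of 2-fold or more were PABP binding of *CycB* at 2–3 hr centred on *Act5C* (0.067), PABP binding of *CycB3* at 2–3 hr with the eGFP-ME31B input as divisor (0.038), and the w1118 input change of *CycB*, *CycE* and *CycD* in deposited FPKM (1.28, 0.0031 and 1.14). Of 99 alternative counts, 79 stayed within 1.5-fold. Centred on *Act5C*, whose own log2 binding was between -2.25 and -0.29, the count of members at least 2-fold below the centre was 1 for ME31B at 1–2 hr, 0 for ME31B at 2–3 hr, 1 for PABP at 1–2 hr, and 0 for PABP at 2–3, 3–4 and 4–5 hr and in S2 cells, and 5 members were at least 2-fold higher in eGFP-me31B;png50 than in eGFP-ME31B. In that last comparison the *Act5C* centre raises the difference of every gene alike, and the share of all genes was not computed. For PABP at 3–4 hr the count below the median gene was 2 without a filter and 2 with the other input. At 4–5 hr it was 2 with the other input. The count of members at least 2-fold lower at 2–3 hr in input was 0 in w1118, eGFP-ME31B and png50 with deposited FPKM, and 1, 0 and 0 with the share of fly FPKM or relative to *Act5C*. The cause of these shifts was not tested. The counts for both proteins at 0–1 hr stayed within 1.5-fold under all 6 alternatives. No paired analysis was possible because each condition had 1 library. Leaving out a replicate was not possible for the same reason.

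One library per condition leaves no measure of biological or technical spread. Worm FPKM were under 0.01% of all FPKM in 4 libraries (the S2 ME31B pair and the eGFP-me31B;png50 pair), so these were not scaled to worm RNA. Depth is an estimate.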
